A study of Gallus gallus with 12 samples.

Results

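The hairpins described here are 96 chicken microRNA precursors with late family numbers. Small RNA reads of sorted chicken embryo cells had been assigned to precursors in a chicken-aligned table, and 630 of its 850 precursor names carried a family number of 1400 or more, leaving out gga-mir-1811 and gga-mir-2954. The 96 were chosen by their values, as those of the 630 above 0 in at least 6 of the 12 libraries. How often they were seen is therefore a description and not a result.

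Embryos had received a GFP vector by electroporation, together with further constructs. In the arm called knockdown here, whose library titles read KO, these were meant to delete the chick's own miR-302. In the other arm they were for overexpression of human miR-302. The embryos grew to Hamburger-Hamilton stages 4 to 5, the stages of gastrulation, and cells were then sorted. Each arm gave 3 GFP+ libraries, of cells that had taken up the vector, and 3 GFP- libraries of cells from the same treatment without the label. No group had an empty vector, and the labels name neither the promoter nor how many embryos were pooled, so each comparison sets cells that took up DNA against cells that did not. The replicates carry separate labels, but nothing says that they came from separate embryos, so p-values measure only the spread between these libraries, which may be technical.

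A microRNA is cut from a hairpin-shaped precursor, and its mature arm then guides repression of messenger RNAs. Family numbers are given in order of discovery. Low numbers mostly name families shared by many vertebrates, such as let-7 or miR-302, and many numbers above 1400 were given after deep sequencing of single species. In the chicken such entries often lie inside introns of protein-coding genes, and for many of them no function is known.

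The name largely bird-specific could be checked only in part, from the numbers. Of the 96 hairpins, 1 (gga-mir-1587) shared its number with an entry of the human-aligned table, and hsa-mir-1587 had 0 reads in all 12 libraries. Among all 630 late-numbered names 5 (0.794%) had a human number, against 93.6% of the other 220 names. A number that is missing from the human table does not show that a sequence is missing from mammals or present in all birds, and hairpins are named below by number only.

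Library depth set the precision of every value. Hairpin reads numbered 49276, 82211 and 80407 in knockdown GFP+ replicates 1 to 3, and 325485, 277633 and 435716 in knockdown GFP-. Overexpression GFP+ held 3856, 1292 and 1789, and overexpression GFP- 7546, 52653 and 277637. The deposited values are normalized reads, and 1 read was worth 0.0999 of them in the deepest library and 24.4 in the shallowest. As a check of the labels, the summed chick miR-302 and miR-367 hairpins stood at 17882, 11885 and 17599 normalized reads in knockdown GFP+ against 22239, 17804 and 19769 in GFP-. In the arm labelled overexpression they were 4010, 8458 and 4980 in GFP+ against 6193, 17946 and 10059 in GFP-, and the human-aligned sum was 2562, 4987 and 3132 against 2499, 8841 and 3877, so higher miR-302 was not seen in GFP+ libraries of that arm and its name is the label's. Marker lists of other cell types were followed as well. The summed let-7/miR-98 hairpins, 11 of 13 above 0, stood at 3800 ± 464 (SD, n = 3) in knockdown GFP+ against 477 ± 196 in GFP-, and at 1623 ± 332 against 275 ± 157 in the overexpression arm. The endoderm and liver list, 5 of 8 above 0, stood at 2983 ± 432 against 279.9 ± 191, and at 1322 ± 572 against 103 ± 34.3. The neural list, 8 of 10 above 0, stood at 228 ± 59.5 against 148 ± 22.9, and at 196 ± 42.5 against 128 ± 18.3. These lists were higher in GFP+ in both arms without overlap. Other lists were lower in GFP+ in both arms without overlap. The muscle list, 9 of 9 above 0, stood at 118 ± 47.0 against 525 ± 240 (SD) in the knockdown arm and at 101 ± 83.8 against 535 ± 459 in the other. The blood and endothelium list, 5 of 6 above 0, stood at 78.4 ± 19.1 against 139 ± 30.8, and at 70.1 ± 33.0 against 401 ± 79.5. In the overexpression arm the smaller of these sums rest on few reads. The neural list stood at 147.04 in GFP+ replicate 1, where 1 read was worth 6.68, against 140.66 in GFP- replicate 1. The muscle list stood at 24.4 in GFP+ replicate 2, the value of 1 read. The part of these lists in the results below was not tested.

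The late-numbered hairpins were faint. Their mean over the 12 libraries ranged from 0.226 to 52.2 normalized reads with a median of 1.997, while the other 162 hairpins above 0 in at least 6 libraries had a median of 32.5. These are reads per hairpin, not scaled by length, and the 91 precursors with a RefSeq entry were 59 to 166 bases long. The 18 with a mean of at least 10 entered the main test, 49 lay between 1 and 10, and 29 lay under 1. The 4 libraries with under 10000 hairpin reads carried many of the 18 past that mean. Without the 3 overexpression GFP+ libraries 7 of them had a mean under 10, and without overexpression GFP- replicate 1 as well 10 did. Entry through the group where a hairpin is high favours a difference there, so medians below are given over all 96. The 96 were themselves chosen by detection in these libraries, which can favour a difference too, so their medians are descriptions only. The highest, gga-mir-1552, ranked at position 66 of all 850 names. Only 10 of the 96 were above 0 in all 12 libraries.

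Most members came from a few blocks of numbers. The block from 1500 to below 2000 held 43 of the 96 and 56.5% of their summed mean level, and the block from 6500 to below 7000 held 24 members with 11.8%. The block from 1400 to below 1500 held 7 members, gga-mir-1454 and gga-mir-1434 among them, which made up 19.1%. Of the 58 names from 7000 to below 8000, 1 was a member. Of the 94 names from 12000 upward, 11 were, with 6.58% of the level.

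At the edge of the rule, 29 hairpins were above 0 in exactly 6 libraries and 36 in exactly 5. The first had means of 0.226 to 3.31 normalized reads (median 0.705) and the others 0.1099 to 2.85 (median 0.481), so the line falls among hairpins of similar level. Those just inside held 8 to 48 reads in all 12 libraries together, and those just outside 5 to 39.

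Their share of the library was small, and it was not the same in all libraries. In knockdown GFP+ the 96 hairpins took 0.897%, 0.941% and 1.07% of the hairpin reads, and in knockdown GFP- 0.559%, 0.683% and 0.691%. The knockdown groups did not overlap, with means of 0.971% ± 0.0917 (SD, n = 3) and 0.644% ± 0.0737 (SD, n = 3). In overexpression GFP+ the share was 3.81%, 3.48% and 3.52%. In overexpression GFP- it was 3.56%, 1.005% and 0.912%. The high value there belongs to replicate 1, the shallowest GFP- library, which lay inside the range of the GFP+ libraries, and the groups of this arm overlap. The 4 libraries with under 10000 hairpin reads were thus the 4 with a share above 3%. All 3 knockdown GFP+ libraries were likewise shallower than all 3 knockdown GFP- libraries. Overexpression GFP- replicate 2, with 52653 hairpin reads, had a share inside the range of knockdown GFP+. Depth and group can thus not be told apart in either arm. The 95% Wilson intervals ran from 2.61% to 4.63% in the shallowest library and from 0.667% to 0.716% in the deepest. They cover counting error only, since reads are not independent molecules.

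**Figure D1:**
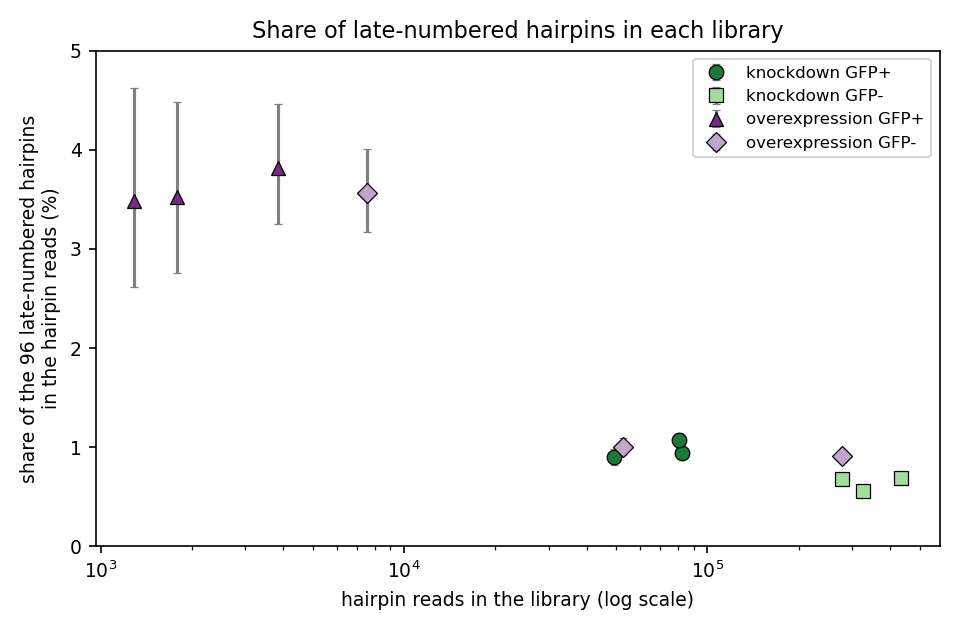
Share of the 96 late-numbered hairpins in all hairpin reads (%, vertical axis) against the hairpin reads of the library (horizontal axis, log scale), 1 point per library with 95% Wilson intervals. The 3 overexpression GFP+ libraries and overexpression GFP- replicate 1 lie between 3.48% and 3.81%, and the other 8 libraries between 0.559% and 1.07%.

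Each library with under 10000 hairpin reads showed fewer of the 96 than each deeper library. Between 64 and 78 of the 96 were above 0 in the knockdown GFP+ libraries and 82 to 86 in knockdown GFP-, but 25 to 44 in overexpression GFP+. In overexpression GFP- replicates 1 to 3 there were 50, 66 and 85. Among the deeper libraries detection did not keep the order of depth. Knockdown GFP+ replicate 3, with 80407 hairpin reads, showed 64, and replicate 1, with 49276, showed 73. The deepest library showed 82, and knockdown GFP- replicate 2, with 277633, showed 86. In all 3 libraries of a group, 43 were seen in knockdown GFP+, 69 in knockdown GFP-, 13 in overexpression GFP+ and 32 in overexpression GFP-. In overexpression GFP+, 34 had no read at all. At the mean level of overexpression GFP-, 81 of the 96 would have had fewer than 3 reads expected in the 3 GFP+ libraries together, and this held for 32 of the 34 without a read, for which a difference was not detectable at this depth. The other 2, gga-mir-6542 and gga-mir-1662, had 4.47 and 3.08 reads expected.

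The genome around these hairpins was described from the RefSeq gene table of assembly GRCg7b, which matched 91 of the 96 by name. The sources used here do not give the build behind the deposited table, so genes are named without positions. A protein-coding gene spanned 76 of the 91 (83.5%), with strand not considered. The share was 77.0% among the other late-numbered hairpins with an entry and 58.6% among the hairpins without a late number. Another precursor lay within 10 kb for 12 members (13.2%), while this held for 63.8% of the hairpins without a late number. They lay on 27 chromosomes, with 5 on Z.

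The genes around the most abundant ones had varied roles. gga-mir-1552 lies in MAP4K4, a kinase of stress signalling, gga-mir-1454 in RPS12, a ribosomal protein gene, and gga-mir-1434 in EEF2, which encodes the elongation factor that moves the ribosome along. gga-mir-1674 lies in POLL, a DNA repair polymerase, and gga-mir-3535 in NCL, the nucleolar protein nucleolin. gga-mir-1732-1 lies in the HOXA cluster on chromosome 2, within the spans of HOXA9 and the long noncoding HOXA10-AS and within 10 kb of MIR196B, a precursor known from Hox clusters. Whether reads of gga-mir-1732-1 came from a copy elsewhere was not examined. gga-mir-1790 and gga-mir-1641 lie within long noncoding RNAs on chromosomes 4 and 3. gga-mir-12249 and gga-mir-1601 are both on chromosome 24, in C20orf173 and in NTM, a neural cell adhesion gene. For gga-mir-1692 and gga-mir-1628 no entry matched.

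Small nucleolar RNAs, which guide the modification of ribosomal RNA and are often made from introns of ribosomal genes, lay within 10 kb of 5 members. These were gga-mir-1454 in RPS12, gga-mir-3535 in NCL, gga-mir-1563 in GNL3, gga-mir-3528 in MRPS2 and gga-mir-3536 in UBAP2L. That is 5.49% of the matched members, against 0.209% of the other late-numbered hairpins and 0 of 210 without a late number. In no case did the precursor overlap the small nucleolar RNA. The sources used here do not say how reads of such neighbours were counted.

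The 18 tested hairpins were grouped by their reads in overexpression GFP- replicates 1 and 3, which differ in depth. Overexpression GFP- replicate 3 held 36.8 times as many hairpin reads as replicate 1, from the same label. In 8 of the 18 hairpins replicate 3 held over 10 times the reads of replicate 1, which was so in 109 of the 114 other tested hairpins (95.6%). In 4 it held more, up to 10 times. In 6 replicate 1 held at least as many reads as replicate 3, and among the 114 others this was so for 1, gga-mir-7b (0.877%). The grouping was made after the values were seen and has no test. The filter on the mean bears on it too, as 10 of the 18 had a mean under 10 without the 4 shallow libraries. Following depth refers below to these replicates only, and other libraries do not all bear it out. In knockdown GFP+ replicates 1 to 3 the 6 took 0.211%, 0.234% and 0.225% of the hairpin reads. The 8 took 0.313%, 0.342% and 0.556% there.

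The 8 that followed depth between overexpression GFP- replicates 1 and 3 included the most abundant ones, and a protein-coding gene spanned all 8. gga-mir-1454 had 11, 57 and 490 reads in overexpression GFP- replicates 1 to 3. The same replicates held 18, 60 and 303 of gga-mir-1434 and 9, 55 and 323 of gga-mir-1674. Reads thus rose in the order of library size. gga-mir-1552 had 11, 29 and 263, and gga-mir-3535 had 7, 30 and 153. The remaining 3, gga-mir-1451, gga-mir-1456 and gga-mir-1677, went from 6, 1 and 6 reads in replicate 1 to 85, 54 and 77 in replicate 3. gga-mir-1451 lies in RNGTT, which caps messenger RNA, gga-mir-1456 in LYRM7, a mitochondrial assembly factor gene, and gga-mir-1677 in EPHA7, an ephrin receptor.

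The 6 that did not follow depth between those replicates were gga-mir-1790, gga-mir-1641, gga-mir-1732-1, gga-mir-1692, gga-mir-1628 and gga-mir-1565. gga-mir-1790 had 19, 14 and 14 reads in the same 3 libraries, and gga-mir-1641 had 21, 5 and 4. For gga-mir-1732-1 there were 19, 7 and 18. In all 3 the library of 7546 hairpin reads held more of them than the library of 277637. gga-mir-1692 had 8, 0 and 1, gga-mir-1628 had 17, 4 and 0, and gga-mir-1565 had 5, 2 and 0. Summed over the 6, unscaled reads were 477 in the 3 knockdown GFP+ libraries, 157 in knockdown GFP-, 66 in overexpression GFP+ and 158 in overexpression GFP-. The sums over the 8 were 882, 4470, 75 and 2092. Knockdown GFP- thus held fewer reads of the 6 and more reads of the 8 than the shallower knockdown GFP+. Of the hairpin reads, the 6 took 0.752% to 1.47% in overexpression GFP+ and 1.18% in overexpression GFP- replicate 1, and 0.00964% to 0.234% in the other 8 libraries. They were a larger part of each of the 4 shallow libraries, so after scaling to depth their level was high there. For overexpression GFP- replicate 1 this follows from how the 6 were chosen. For overexpression GFP+ it follows in part from the mean of at least 10 required for the test. Without these libraries gga-mir-1565 had a mean of 3.47 and gga-mir-1628 of 8.53 normalized reads.

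**Figure D2:**
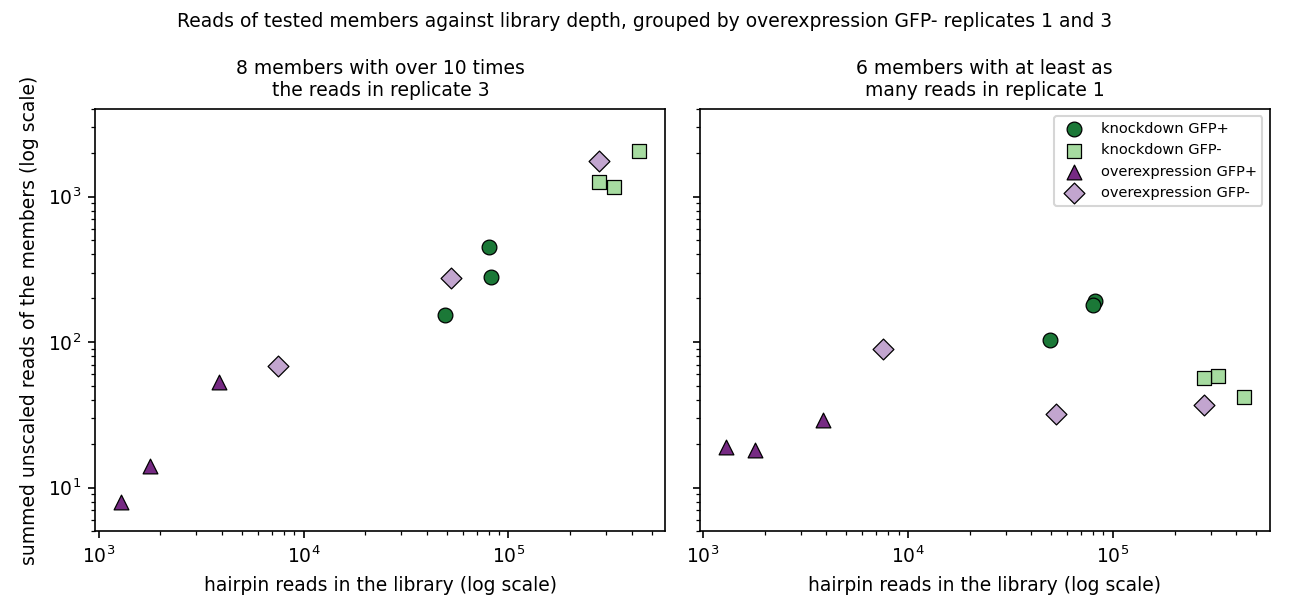
Summed unscaled reads (vertical axis, log scale) of 8 tested hairpins that had over 10 times the reads in overexpression GFP- replicate 3 as in replicate 1 (left) and of 6 that had at least as many in replicate 1 (right), against the hairpin reads of each library (horizontal axis, log scale). The sum on the left runs from 8 to 2042 reads, and the sum on the right from 18 reads upward with knockdown GFP+ replicates 2 and 3 highest, over the 58 reads or fewer of the deeper knockdown GFP- libraries.

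In the knockdown arm, GFP+ cells were compared with GFP- cells, and 2 late-numbered hairpins rose. gga-mir-1732-1, of the HOXA cluster, stood at 17.3, 19.97 and 33.5 normalized reads in GFP+ and at 1.14, 1.26 and 0.699 in GFP-. gga-mir-12249 stood at 14.7, 7.13 and 8.36 against 0.569, 0.630 and 0.599. For both, all GFP+ libraries lay above all GFP- libraries. In the units of the test, log2(normalized reads + 1), which understates the change of low hairpins, gga-mir-1732-1 was higher by 3.55 ± 0.997 (SE) and gga-mir-12249 by 2.73 ± 0.779 (SE), each with an adjusted p of 0.0469 (limma, Benjamini-Hochberg over 132 hairpins). None of the 18 fell. Of all 132 tested hairpins 9.85% rose and 0.758% fell, and 2 of 18 is near that background. Over all 96 members, in a limma fit of the 258 hairpins above 0 in at least 6 libraries, the median log2 fold was 0.31, against -0.02 over the 258.

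Neither call was stable by limma. The limma fit of the 258 hairpins called 0 of the 96 in this arm (4.26% of the 258 rose and 0% fell). An unadjusted p under 0.05 was met by 9 members and by 36 of all 258. Leaving out any 1 of the 6 knockdown libraries lost both, with adjusted p (limma) of 0.0976 to 0.170 for gga-mir-1732-1 and 0.0959 to 0.169 for gga-mir-12249. Without overexpression GFP- replicate 2 both had an adjusted p (limma) of 0.0610, and without overexpression GFP+ replicate 1 that of gga-mir-1732-1 was 0.0509. Without overexpression GFP- replicate 1, the library with the high share, 5 members rose in this arm (15 of all 132 did). With the replicate number as a block 1 of the 2 calls remained, and gga-mir-12249 was lost. On recovered reads of the same 132 hairpins edgeR called 5 of the 18 higher (15.9% of the 132 were) and DESeq2 7 (17.4%). Both hairpins were among these calls. The adjusted p of gga-mir-1732-1 was 0.00759 by edgeR and 3.07e-05 by DESeq2, and that of gga-mir-12249 0.00287 and 2.46e-05.

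Both hairpins also had more unscaled reads in the shallower GFP+ libraries. gga-mir-1732-1 had 20, 42 and 60 reads in GFP+ against 8, 8 and 7 in GFP-, although the GFP- libraries held on average 4.90 times as many hairpin reads. gga-mir-12249 had 17, 15 and 15 against 4, 4 and 6. In 5 of the 96 (5.21%) every GFP+ library held more unscaled reads than every GFP- library, and in all 258 hairpins above 0 in at least 6 libraries this was so for 3.88%. The other 3 were gga-mir-1790, gga-mir-1692 and gga-mir-1601. In normalized reads, 23 of the 96 lay wholly above in GFP+ (19.8% of all 258 did) and 5 wholly below (17.1% of the 258).

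Further hairpins had high values in knockdown GFP+ and did not pass the test. gga-mir-1692 stood at 35.5, 22.8 and 35.1 in GFP+ against 2.56, 1.42 and 1.10 in GFP-, a log2 difference of 3.59 ± 1.17 (SE; adjusted p = 0.0784, limma). gga-mir-1790 stood at 22.5, 25.2 and 16.2 against 2.42, 3.15 and 1.199, with 2.80 ± 1.005 (SE; adjusted p = 0.120, limma). gga-mir-1641 stood at 10.4, 16.6 and 12.8 against 1.71, 1.26 and 0.699. The 3 do not overlap between the groups, and their error in this fit includes the spread over the overexpression libraries. gga-mir-1565 (3.47, 2.38 and 3.35 against 0.142, 0.630 and 0.0999) and gga-mir-6566 (10.4, 9.04 and 7.25 against 2.42, 2.36 and 2.20) lay wholly above too. The second lies in a region of MHC genes on chromosome 16 and has 5 rows in the table under 1 name, so its reads may be split between copies. A fit on the 6 knockdown libraries alone called 8 of the 18 higher, where it called 18.9% of all 132 higher.

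The 8 hairpins grouped above as following depth did not pass the test in this arm. gga-mir-1552 had 40.7, 79.9 and 39.6 normalized reads in knockdown GFP+ and 57.0, 40.6 and 41.2 in GFP-. The groups overlap, with a log2 difference of 0.14 ± 0.509 (SE; adjusted p = 0.982, limma). gga-mir-1454 stood at 16.5, 7.61 and 92.0 against 27.3, 28.0 and 63.3, and gga-mir-1434 at 30.3, 6.66 and 76.4 against 28.1, 34.2 and 41.0. In both, knockdown GFP+ replicate 3 was far above replicate 2. gga-mir-1674 (13.9, 19.97 and 6.13 against 19.3, 52.3 and 20.3), gga-mir-3535 (13.9, 7.13 and 20.6 against 11.8, 13.9 and 14.98), gga-mir-1456 (4.33, 1.90 and 5.02 against 7.11, 4.88 and 4.60) and gga-mir-1677 (6.06, 6.18 and 9.48 against 5.12, 11.0 and 6.49) overlapped between the groups. gga-mir-1451 alone of the 18 lay wholly below, at 7.80, 4.28 and 0 against 10.8, 12.9 and 12.2, with a log2 difference of -1.85 ± 0.790 (SE; adjusted p = 0.190, limma). Of the hairpins outside that group, gga-mir-1607 (13.0, 5.71 and 4.46 against 5.54, 1.89 and 6.69) and gga-mir-1628 (0.866, 4.28 and 0 against 0.284, 1.26 and 0.400) overlapped too and did not pass.

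**Figure D3:**
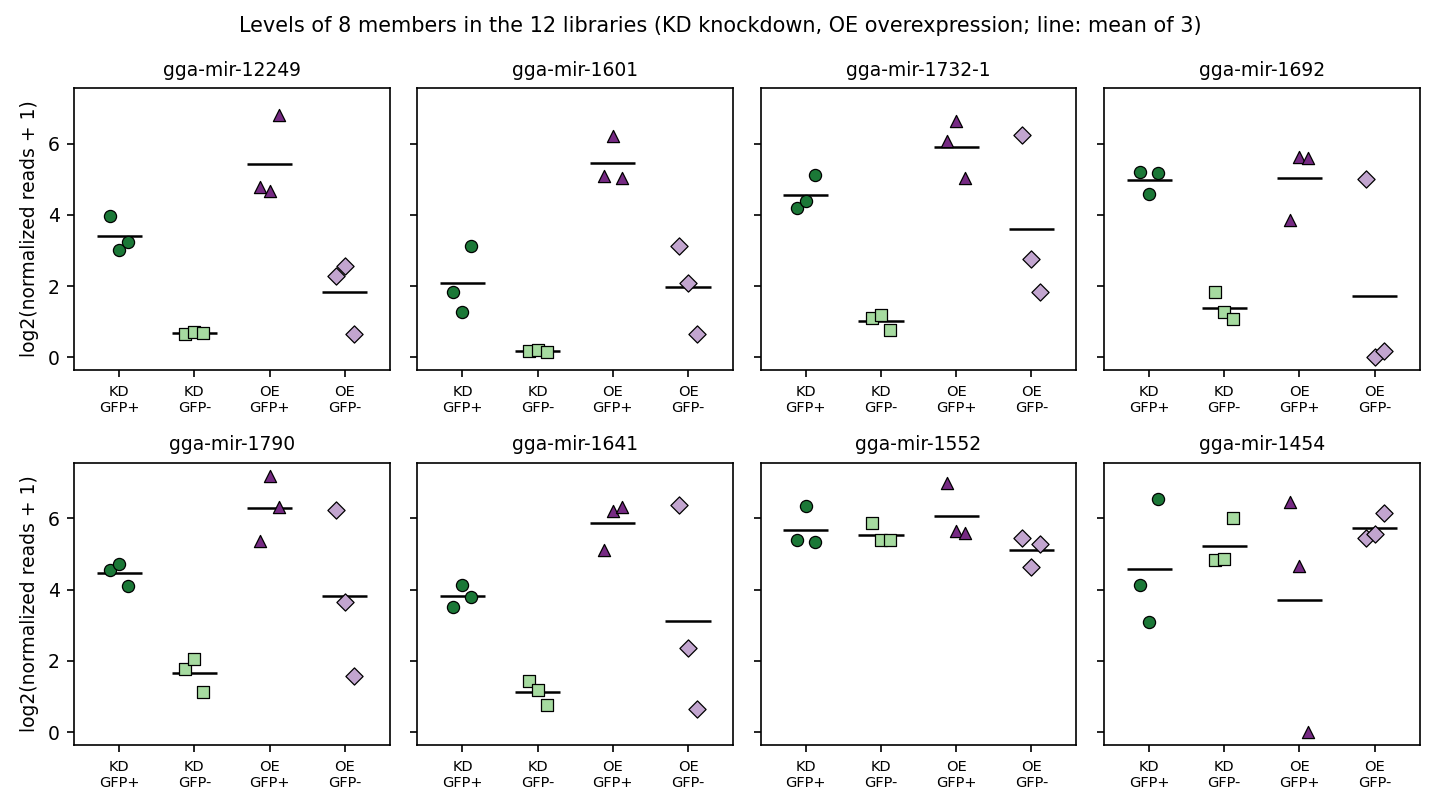
Level of 8 late-numbered hairpins as log2(normalized reads + 1) (vertical axis) in the 4 groups (horizontal axis; KD is knockdown, OE overexpression), 1 point per library and a line at the mean of 3. In the first 6 panels knockdown GFP+ lies wholly above knockdown GFP-, while gga-mir-1552 and gga-mir-1454 overlap. In gga-mir-1732-1, gga-mir-1692, gga-mir-1790 and gga-mir-1641, 1 overexpression GFP- library stands high beside the GFP+ libraries.

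In the arm labelled overexpression, GFP+ cells were compared with GFP- cells in the same way, and 2 late-numbered hairpins rose, both from chromosome 24. gga-mir-12249 stood at 26.7, 24.4 and 111.0 normalized reads in GFP+ and at 3.91, 4.91 and 0.572 in GFP-. gga-mir-1601, in NTM, stood at 33.4, 73.1 and 31.7 against 7.81, 3.28 and 0.572. Neither overlaps between the groups. The log2 difference was 3.58 ± 0.779 (SE; adjusted p = 0.00789, limma) for gga-mir-12249 and 3.49 ± 0.793 (SE; adjusted p = 0.00891, limma) for gga-mir-1601. Of all 132 hairpins 9.09% rose and 9.85% fell, so 2 of 18 higher is near the background here too, and none of the 18 fell. Over all 96 members the median log2 fold was -0.23 in the limma fit of the 258 hairpins, against -0.56 over the 258. By edgeR on the recovered reads of the same 258 it was 0.79, against -0.62 over the 258. The sign of the members' median thus turns with the test. In overexpression GFP+ 34 of the 96 had no read, and 81 had fewer than 3 expected. At this depth neither median, nor its place beside that of the 258, is a measured change of the members.

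Both called hairpins entered the test through the group in which they rose. Without overexpression GFP+ the mean was 4.60 normalized reads for gga-mir-12249 and 2.65 for gga-mir-1601, under the 10 required, so the choice of tested hairpins favours a rise here. In the fit of the 258, whose hairpins were chosen by detection and not by mean level, both were called higher as well (adjusted p = 0.0166 for each, limma; 5.04% of the 258 rose).

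These 2 calls also rest on few reads. gga-mir-12249 had 4, 1 and 7 unscaled reads in GFP+ and 1, 6 and 4 in GFP-, sums of 12 and 11. gga-mir-1601 had 5, 3 and 2 against 2, 4 and 4, sums of 10 and 10. The counts were near equal and the levels were not, since the libraries differ in depth. No hairpin of the 258 (0%) had all its GFP+ values above all its GFP- values in unscaled reads of this arm. Both calls were kept when any 1 of the 12 libraries was left out, with the highest adjusted p (limma) at 0.0407 and 0.0436. Both were lost in a fit on the 6 libraries of this arm alone, with an adjusted p (limma) of 0.103 for each, where that fit called 4.55% of the 132 higher. edgeR and DESeq2 on recovered reads of the 132 called the same 2 of the 18 (9.85% of the 132 were higher by either).

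Overexpression GFP- replicate 1 decided several values of this arm. Without it 7 of the 18 rose, where 16 of all 132 did. Those that joined were gga-mir-1692, gga-mir-1641, gga-mir-1565, gga-mir-1790 and gga-mir-1732-1, with log2 differences of 3.62 to 4.93. Without overexpression GFP+ replicate 1 there were 5 (15 of all 132 rose), as gga-mir-1692, gga-mir-1565 and gga-mir-1456 joined. With all 6 libraries of the arm gga-mir-1790 stood at 40.1, 146.2 and 79.3 in GFP+ against 74.2, 11.5 and 2.001 in GFP-. gga-mir-1732-1 stood at 66.8, 97.5 and 31.7 against 74.2, 5.73 and 2.57. The high GFP- value is that of replicate 1 in both, and it falls among the GFP+ values. gga-mir-1641 (33.4, 73.1 and 79.3 against 82.0, 4.095 and 0.572), gga-mir-1692 (13.4, 48.7 and 47.6 against 31.3, 0 and 0.143) and gga-mir-1565 (6.68, 97.5 and 31.7 against 19.5, 1.64 and 0) also had their highest GFP- value in replicate 1. gga-mir-1607, in the gene ARPP21 known from neurons, stood at 86.9, 48.7 and 15.9 against 66.4, 11.5 and 10.4, and gga-mir-1628 at 33.4, 0 and 15.9 against 66.4, 3.28 and 0. Both show the same replicate highest among GFP-. For the 6 hairpins grouped above by their reads, a higher level in replicate 1 than in replicate 3 follows from that choice. Calls of such hairpins without replicate 1 are therefore no separate result.

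The other tested hairpins of this arm went in both directions without passing the test. gga-mir-1552 stood at 127.0, 48.7 and 47.6 in GFP+ against 43.0, 23.8 and 37.6 in GFP-, and lay wholly above with 19, 2 and 3 reads in GFP+ (log2 difference 0.96 ± 0.509 SE, adjusted p = 0.176, limma). gga-mir-1456 stood at 20.1, 48.7 and 31.7 against 3.91, 13.1 and 7.72, with 1.94 ± 0.656 (SE; adjusted p = 0.0522, limma), and had 3, 2 and 2 reads in GFP+. Both lie wholly above, from reads in single digits in most GFP+ libraries. gga-mir-3535, in NCL, lay wholly below, at 6.68, 0 and 15.9 against 27.3, 24.6 and 21.9, with -2.33 ± 0.917 (SE; adjusted p = 0.0845, limma) and 2 reads in GFP+ in all. gga-mir-1454 (86.9, 24.4 and 0 against 43.0, 46.7 and 70.0) and gga-mir-1434 (33.4, 0 and 63.4 against 70.3, 49.1 and 43.3) overlapped. gga-mir-1674 (33.4, 48.7 and 15.9 against 35.2, 45.0 and 46.2), gga-mir-1451 (13.4, 24.4 and 15.9 against 23.4, 17.2 and 12.1), gga-mir-1677 (33.4, 0 and 31.7 against 23.4, 5.73 and 11.0) and gga-mir-6566 (6.68, 0 and 47.6 against 23.4, 4.095 and 4.57) overlapped as well. Over all 96, 5 lay wholly above (7.36% of the 258 did) and 8 wholly below (18.2% of the 258).

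**Figure D4:**
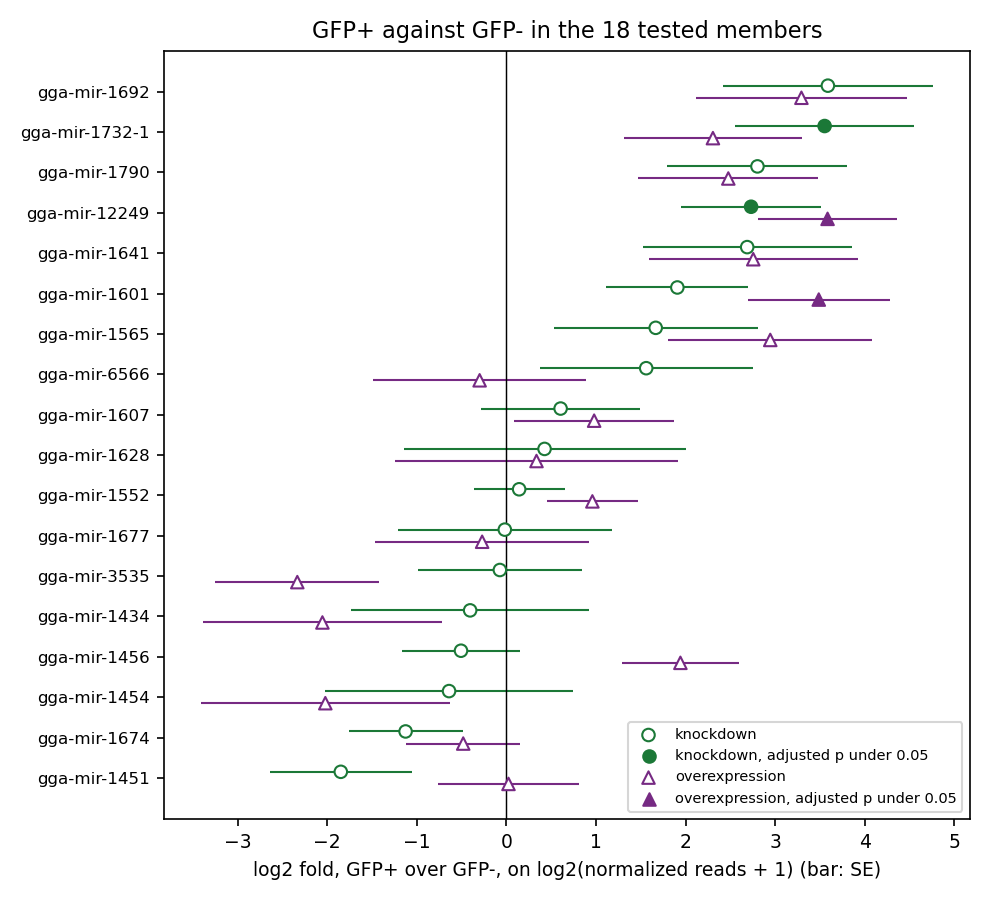
Log2 difference of GFP+ over GFP- on log2(normalized reads + 1) (horizontal axis) with SE for the 18 tested hairpins (vertical axis), in the knockdown arm (circles) and the overexpression arm (triangles), filled where the adjusted p (limma) was under 0.05. The filled points are gga-mir-1732-1 and gga-mir-12249 in the knockdown arm at 3.55 and 2.73, and gga-mir-12249 and gga-mir-1601 in the overexpression arm at 3.58 and 3.49.

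Whether the GFP difference itself differed between the arms was tested in the same fit, and no hairpin passed. Among the 18 the smallest p was that of gga-mir-1456, whose difference was 2.45 higher in the overexpression arm (SE 0.928, adjusted p = 0.670, limma). For gga-mir-12249 the arms differed by 0.85 ± 1.10 (SE), for gga-mir-1601 by 1.58 ± 1.12 (SE) and for gga-mir-1732-1 by -1.25 ± 1.41 (SE). Of the 132 hairpins 0 passed by limma, edgeR or DESeq2, with 9, 10 and 8 at an unadjusted p under 0.05, 1, 1 and 2 of them late-numbered. Calls in 1 arm and not in the other are therefore not shown to differ.

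The GFP- cells of the 2 arms were also compared, which sets unlabelled cells of 2 treatments side by side. By limma 0 of the 132 passed, with 10 at an unadjusted p under 0.05, 3 of them late-numbered, and edgeR called 0 as well, with 14. DESeq2 called 6 of the 18 higher in the overexpression arm (5.3% of the 132 were called higher): gga-mir-1601, gga-mir-1607, gga-mir-1628, gga-mir-1641, gga-mir-1732-1 and gga-mir-1790. Over all 96 members the median log2 difference was 0.45 by limma, against 0.07 over the 258. By edgeR on the reads of the 258 the members' median was 0.72. It was 0.28, 0.55 and 1.10 without overexpression GFP- replicate 1, 2 and 3 in turn. Among the 18, gga-mir-1732-1 had the smallest p, with 2.59 ± 0.997 (SE; adjusted p = 0.547, limma). Overexpression GFP- replicate 1 holds the highest of the 3 values in each of the 6 that DESeq2 called.

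The 78 members with a mean under 10 were reached by edgeR on the recovered whole reads of all 258 hairpins, a fit added after the data were seen. In the knockdown arm 9 of the 96 rose and none fell, where 11.2% of the 258 rose and 2.33% fell. To the 6 tested ones, gga-mir-1732-1, gga-mir-12249, gga-mir-1601, gga-mir-1692, gga-mir-1790 and gga-mir-1641, it added gga-mir-6547, gga-mir-1561 and gga-mir-6564. gga-mir-6547, in the growth factor receptor gene ERBB2, had 3, 13 and 21 reads in GFP+ against 5, 2 and 1 in GFP- (log2 fold 4.06, adjusted p = 0.0163, edgeR). gga-mir-1561, in RAB11FIP4, had 17, 19 and 4 against 4, 4 and 5 (log2 fold 3.79, adjusted p = 0.0109, edgeR). gga-mir-6564 had 2, 11 and 4 against 1, 0 and 3 (log2 fold 3.95, adjusted p = 0.0197, edgeR). All 3 lie wholly above in normalized reads and overlap in unscaled reads. Without knockdown GFP- replicate 3, the deepest library, 2 of the 9 calls remained, gga-mir-12249 and gga-mir-1732-1 (14 of the 258 rose). There were 4 without knockdown GFP- replicate 2 (19 of the 258 rose) and 5 without knockdown GFP+ replicate 1 (22 rose). gga-mir-12249 and gga-mir-1732-1 stayed called with any 1 of the 12 libraries left out of this fit.

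In the overexpression arm the same fit called 3 of the 96 higher and none lower (4.65% of the 258 rose, 6.98% fell). They were gga-mir-12249 (log2 fold 4.02, adjusted p = 0.0116, edgeR), gga-mir-1601 (3.78, adjusted p = 0.0412, edgeR) and gga-mir-1610. The last had 2, 1 and 0 reads in GFP+ against 0, 0 and 1 in GFP-, and its fold is not given because so few reads allow none. With the replicate number as a block 1 of these calls remained, gga-mir-12249. There were 0 calls without overexpression GFP- replicate 3 (7 of the 258 rose) and 9 without overexpression GFP- replicate 1 (18 rose). There was 1, gga-mir-12249, without overexpression GFP+ replicate 2 or GFP- replicate 2 (10 and 13 of the 258 rose). Without overexpression GFP+ replicate 3 the 1 call was gga-mir-1610 (9 rose), and gga-mir-12249 was lost.

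By limma on the same 258 hairpins 4 members fell in the overexpression arm, where 9.3% of the 258 fell. They were gga-mir-1662, in the peptide receptor gene VIPR1 (adjusted p = 0.0137, limma), gga-mir-6542, in SRF, which encodes a transcription factor (adjusted p = 0.0256, limma), gga-mir-6646-1 (adjusted p = 0.0298, limma) and gga-mir-3523, in the phosphatase gene DUSP1 (adjusted p = 0.0384, limma). All 4 had 0 reads in the 3 GFP+ libraries. In GFP- replicates 1 to 3 there were 5, 11 and 55 reads of gga-mir-1662, 11, 8 and 23 of gga-mir-6542, 2, 25 and 37 of gga-mir-6646-1, and 5, 4 and 15 of gga-mir-3523. At the GFP- level 2.11 to 4.47 reads were expected in GFP+ in all, and edgeR, which takes depth into account, gave adjusted p of 0.226 to 0.375 and called none of them. No fold is given against 0 reads at this depth. gga-mir-6646-1 lies within 10 kb of a precursor of the same number, so its reads may be split between copies. gga-mir-1662 was listed in 2 rows under 1 name, so its reads may be split as well. Among hairpins with a mean of at least 1, limma called these 4 lower too, and gga-mir-6568 higher beside gga-mir-12249 and gga-mir-1601. Of those 268 hairpins 14 rose and 28 fell. gga-mir-6568 had 2, 1 and 1 reads in overexpression GFP+ against 1, 4 and 4 in GFP-.

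A few untested members had enough reads to describe. gga-mir-2131, in NCBP1, a subunit of the nuclear cap-binding complex, stood at 4.33, 1.90 and 11.7 normalized reads in knockdown GFP+ against 17.9, 8.66 and 21.5 in GFP-, from 30 and 396 unscaled reads. Its groups overlap. gga-mir-1563, in GNL3, a nucleolar protein of stem cells, had 39, 85 and 63 reads in knockdown GFP- and 0, 0 and 7 in GFP+, and lay wholly below in level (edgeR log2 fold -2.68, adjusted p = 0.0859). gga-mir-1587, in AUTS2, stood at 5.20, 1.90 and 4.46 in knockdown GFP+ against 0.995, 2.36 and 0.999 in GFP-, which overlap. Since these are bulk libraries, fewer cells of a type and less RNA per cell cannot be told apart for any of these hairpins.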

How the data were processed

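Small RNA was sequenced from GFP+ and GFP- cells of 2 arms, with 3 libraries in each of 4 groups. STAR 2.7.0f, cutadapt and FastQC 0.11.5 are named in the submitters' processing notes, as is the build hg38. The chicken build and the counter are not stated there. The authors deposited a normalized signal per precursor, not counts. In every library 100% of values above 0 were whole multiples of the smallest within 0.001 reads, so whole reads were recovered by division. Of 911 precursor rows, 61 repeats of a name were dropped, keeping the highest mean. No mature arm was above 0. A deposited sheet of the authors' ratios for miR-302 and miR-367 hairpins was not used.

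The main test was limma 3.58.1 (R 4.3.3) on log2(value + 1) with 4 group means over the 12 libraries and an empirical Bayes trend, for 132 precursors with a mean of at least 10. Calls had a two-sided Benjamini-Hochberg adjusted p under 0.05. DESeq2 1.42.0 and the quasi-likelihood test of edgeR 4.0.16 on recovered reads, other pseudocounts, filters, scalings and left-out libraries were alternatives. TMM scaling used the deepest library as reference, a choice made after seeing that the default took the shallowest. GFP+ and GFP- libraries share numbers in their titles. Deviations of same-numbered ones from the group means correlated by 0.150, 0.379 and 0.144 in the knockdown arm. In the overexpression arm they correlated by 0.207, 0.324 and 0.111. Unlike-numbered ones ran from -0.284 to 0.192 and from -0.389 to 0.113. These ranges overlap, so pairing was not settled. The main test left pairing out, and the replicate block, an alternative, took the numbers to pair libraries. On data simulated for the knockdown comparison (132 precursors), limma called 92% of log2 changes of 4 and 4% of those of 1, and 76% of changes of -4 and 0% of those of -1. Each precursor was simulated at its mean over the 12 libraries, with no difference between the other groups. For gga-mir-1732-1 that mean was 29.4, far above its knockdown GFP- values. The rates are over all 132 and were not worked out for the late-numbered ones. The text names each member called in a fit of all 12 libraries, the 12 most abundant, and up to 5 with the largest and 5 with the smallest fold per arm. Some members called only by edgeR with 1 library left out are given as counts. Members and lists were chosen with earlier results of these data known.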

Additional observations from a re-analysis of the deposited data

How the results depend on the processing

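Members called in the knockdown arm, 2 by the main test and with a pseudocount of 0.5 or the first row of a repeated name, came to 0 with a pseudocount of 5, with a mean of at least 1, with a value above 0 in at least 6 libraries, with no filter, with scaling to total hairpin reads, with TMM on its default reference and with TMM over the 258 hairpins. They came to 1 with TMM or the replicate block, 5 with edgeR, 7 with DESeq2, 8 in the compared groups only, and 0 to 5 with 1 library left out. In the overexpression arm, 2 became 7 with a mean of at least 1 (3 higher, 4 lower), 6 with a value above 0 in at least 6 libraries on either scaling (2 higher, 4 lower), 0 in the compared groups only, and 2 to 7 with 1 library left out. There were 3 with a pseudocount of 5, and 3 with no filter (2 higher, 1 lower). Without overexpression GFP+ replicate 3, gga-mir-3535 was called lower (adjusted p = 0.0211, limma). For GFP- cells 0 became 6 with DESeq2. By edgeR over the 258 hairpins 0 became 6 without overexpression GFP- replicate 3 (6 of the 258 rose) and 2 without replicate 2 (2 rose). edgeR over the 258 hairpins gave 2 to 13 instead of 9 in the knockdown arm and 0 to 9 instead of 3 in the overexpression arm with 1 library left out, and 1 with the replicate block in the latter. In the knockdown arm the block left 8 of the 9, without gga-mir-6564. The block, which pairs same-numbered libraries, changed no other call of a member. The cause of these changes was not tested. TMM moved the median log2 fold of all 132 hairpins from -0.17 to -0.04 in the knockdown arm and from -0.67 to -0.59 in the overexpression arm. The difference between arms uses all 4 groups, so no fit on fewer groups was made for it. Depth limits the overexpression arm most: a hairpin with no read in GFP+ replicate 2 could stand at up to 73.1 normalized reads, the level of 3 reads.

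The share of knockdown GFP+, 0.971%, was 1.18% for hairpins above 0 in at least 1 library, 0.817% in at least 9 and 0.841% without the most abundant member. For knockdown GFP- (0.644%) it was 0.725%, 0.526% and 0.541%, and for overexpression GFP+ (3.61%) 4.57%, 2.97% and 3.33%. With 1 library left out it ran over 0.919% to 1.007%, 0.621% to 0.687%, and 3.50% to 3.67%, and over 0.958% to 2.285% in overexpression GFP-.

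Over all alternatives, 818 log2 folds of the named hairpins kept their direction and their side of the threshold, 29 lost a call, 29 gained one and 34 changed sign. Reversals of the sign of the log2 fold met only hairpins that the main test did not call. In the knockdown arm gga-mir-1677 (-0.017) went to 0.11 with TMM, 0.063 with scaling to total hairpin reads and 0.10 with edgeR, gga-mir-1454 to 0.093 with edgeR, gga-mir-3535 to 0.057 with TMM, 0.16 with edgeR and 0.027 with DESeq2, and gga-mir-1434 to 0.25 with edgeR and 0.13 with DESeq2. With 1 library left out, gga-mir-1552 ran from -0.18 to 0.32, gga-mir-1677 from -0.23 to 0.26, gga-mir-1454 from -1.61 to 0.10, gga-mir-1628 from -0.22 to 0.98, gga-mir-3535 from -0.40 to 0.31 and gga-mir-1434 from -1.18 to 0.49. In the overexpression arm gga-mir-1677 went to 0.18 with a pseudocount of 5, 1.15 with edgeR and 1.18 with DESeq2, gga-mir-6566 to 0.10, 1.07 and 1.09, gga-mir-1451 to -0.016 and gga-mir-1628 to -0.26 with DESeq2. With 1 library left out, gga-mir-1677 ran from -1.13 to 1.42, gga-mir-1451 from -0.21 to 0.24, gga-mir-1628 from -1.03 to 2.01 and gga-mir-6566 from -1.68 to 1.13.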
